A study of Canis lupus familiaris with 4 samples.

Results

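The HOX, T-box and cofactor positional genes are transcription factor genes that lay down where along the body, and where along a limb, a cell was formed. They were described here in mesenchymal stromal cells (MSCs) grown from canine adipose tissue. The members were all genes of the deposited table whose symbol names a HOX gene of clusters A to D, a numbered TBX gene, or a PBX, MEIS, PRRX, PITX or TWIST gene. The rule found 58 genes of 30951 in the table, of which 33 were HOX genes, 12 were TBX genes and 13 were cofactor and mesenchymal regulator genes. Each symbol had 1 row. HOXC5, HOXC8, HOXC9, HOXC10, HOXD9, HOXD13 and TWIST1 were not analysed here under their own symbols, so the C and D clusters are described in part.

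The study sequenced total RNA of untreated MSC cultures from 4 dogs, 1 primary cell line and 1 library per dog, harvested after 48 h in multiwell plates. All 4 cultures form 1 group, in DMEM medium with 10% fetal bovine serum and antibiotics, so no contrast between conditions exists. The labels give neither the body site of the fat nor the age, sex or breed of the dogs. Reads assigned to genes ranged from 7474011 in dog 4 to 22411268 in dog 1. Among the markers expected in such cultures, THY1, ENG, CD44, ITGB1, PDGFRA, PDGFRB, COL1A1 and DCN were above the median detected gene and NT5E was below. Of the leukocyte markers PTPRC, MS4A1, CD3E and ITGAM, none had reads in more than 1 library. PTPRC had 5 reads in dog 3, ITGAM had 12 in dog 1, and the others had 0.

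HOX genes lie in 4 clusters, and their order within a cluster mirrors the order of their domains from head to tail, with low paralog numbers acting in the hindbrain and neck and high numbers in the pelvis, hind limb and distal limb. Fibroblasts and stromal cells of adult tissues are known to keep much of this code in culture. PBX and MEIS proteins bind DNA together with HOX proteins, and T-box, PITX, PRRX and TWIST factors mark limb fields and mesenchyme. The developmental roles given here as background are known mainly from mouse and human genetics.

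Most of the positional genes were transcribed in the adipose MSCs. Reads in at least 2 of the 4 libraries, the condition for calling a gene detected, were found for 51 of the 58 members. The share over all 30951 rows of the table was 55.6%. Only 17896 of those rows carry a symbol, as every member does, and the share among them was not counted. A gene's level is its deposited log2 value minus the median of detected genes in the same library. Of the 51 detected members, 9 were above the median detected gene by more than 1 log2 unit, 18 were below by more than 1, and 24 were neither (limma, Benjamini-Hochberg over 17200 detected genes). Over all detected genes 33.3% were above and 35.8% were below. With the median taken over every row of the table, 33 members were above and 0 below, and with the median over genes read in all 4 dogs, 4 were above and 24 below. These levels are not corrected for gene length. A call above or below sets a gene's reads against the median detected gene, and so depends on gene length as well as on RNA amount. Levels can set a gene against itself between dogs, but do not rank the RNA amount of one gene against another.

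The counts by role stand beside 33.3% above and 35.8% below over all detected genes. None of the 29 detected HOX genes was above the median detected gene and 11 were below, and 7 of 12 detected cofactor and mesenchymal regulator genes were above and 2 were below; with the median over every row, 18 HOX genes and 10 of these regulators were above and none was below. With the median over genes read in all 4 dogs, 17 HOX genes were below and none above, and 3 of these regulators were above and 2 below. Of 10 detected TBX genes, 2 were above and 5 below, against 5 above and 0 below with the median over every row and 1 above and 5 below with the median over genes read in all 4 dogs. The median level was -1.31 over detected HOX genes, -1.03 over TBX genes and 1.53 over cofactors and mesenchymal regulators, against -0.02 over all detected genes. Without dog 4, HOXB9 was above (level 1.48), and at a distance of 0.5 log2 units 2 HOX genes were.

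**Figure D1:**
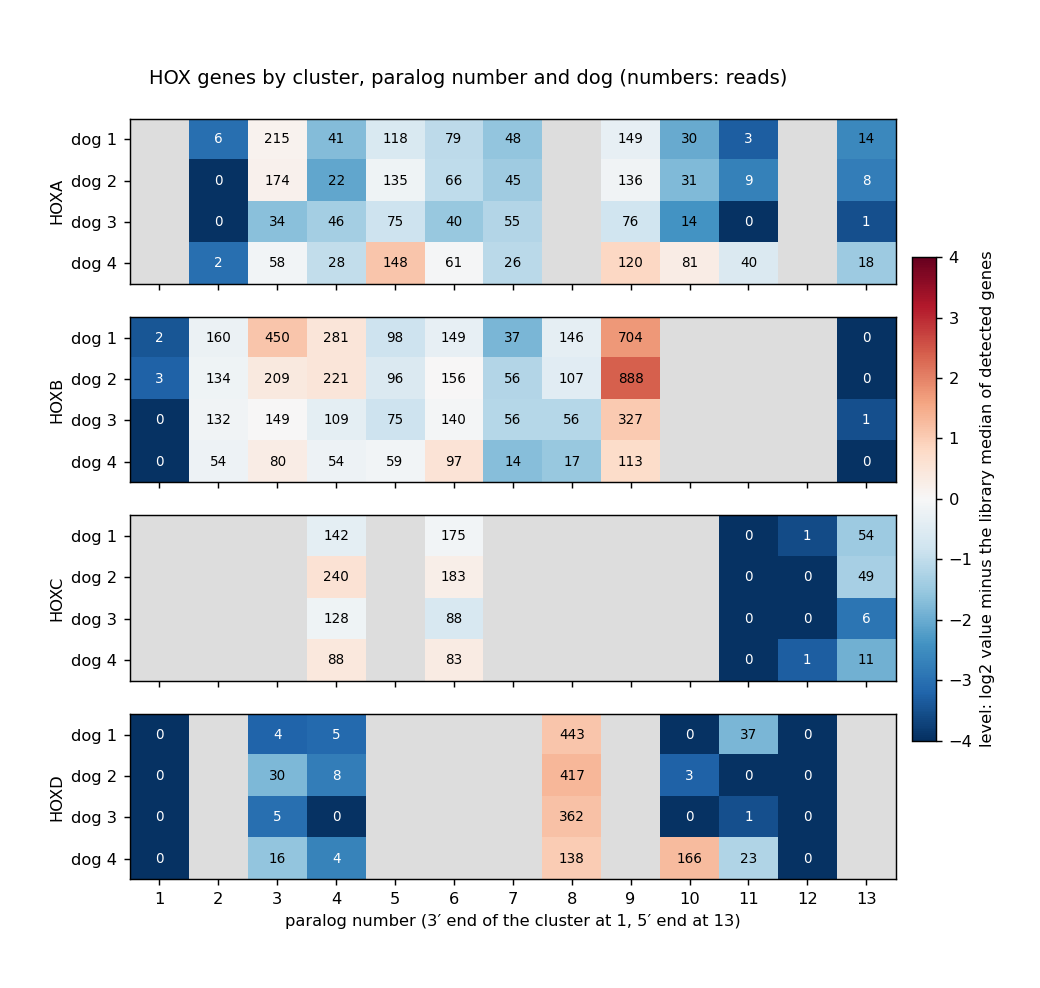
Levels of the HOX genes in each dog, with clusters HOXA to HOXD as panels, dogs as rows and paralog number along the horizontal axis. Colour gives the log2 value minus the library median of detected genes, the printed number is the count of reads, and grey marks positions not analysed or not reported here; HOXD10 has 166 reads in dog 4 and at most 3 in any other dog.

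Along the clusters, counts by paralog number stand beside 55.6% detected over all rows, with or without a symbol, and 35.8% below over all detected genes. All 13 HOX genes with paralog numbers 4 to 8 were detected, and 11 of them were neither above nor below the median detected gene, with 2 below. Of the 8 genes with numbers 1 to 3, 7 were detected and 4 of them were below. Of the 12 genes with numbers 9 to 13, 9 were detected and 5 of them were below. With the median over every row, none of these was below. With the median over genes read in all 4 dogs, 6 of the detected genes with numbers 4 to 8 were below, 4 of those with numbers 1 to 3 and 7 of those with numbers 9 to 13.

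In the HOXA cluster all 11 genes were detected, and dog 4 had the highest deposited value in 9 of them, against 36.0% of all detected genes. By CPM (counts per 1000000 assigned reads), 2 of these differed: HOXA2 was at 0.268 in both dogs 1 and 4, and HOXA7 was highest in dog 3. HOXA2, HOXA4, HOXA11 and HOXA13 were below the median detected gene, and HOXA3, HOXA5, HOXA6, HOXA7, HOXA9 and HOXA10 were neither above nor below. HOXA2, which patterns the hindbrain and the second pharyngeal arch, had 6 reads in dog 1, 2 in dog 4 and 0 in dogs 2 and 3. It met the detection rule only with dogs 1 and 4 both included, so its place among the 9 rests on 2 reads in dog 4. HOXA3, needed for the thymus and parathyroid, reached 9.59, 10.7, 2.24 and 7.76 CPM in dogs 1 to 4. Dog 3 lay below the others, outside their 95% counting intervals (exact Poisson, 1.55 to 3.13 in dog 3 and 5.89 to 10.0 in dog 4). These intervals cover counting error within a library only. HOXA4 had 1.83, 1.35, 3.03 and 3.75 CPM, and it lost its call below without dog 2, where its level was -1.62 and the adjusted p was 0.057 (limma, Benjamini-Hochberg).

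HOXA5, a regulator of lung and airway mesenchyme, had 5.27, 8.31, 4.93 and 19.8 CPM in dogs 1 to 4. Dog 4 was the highest, and its interval of 16.7 to 23.3 did not meet those of the other dogs. HOXA6 had 3.53, 4.06, 2.63 and 8.16 CPM and HOXA9, a gene of the posterior trunk and of blood progenitors, had 6.65, 8.37, 5.00 and 16.1. In both, dog 4 again lay above the others. HOXA7 differed less, with 2.14, 2.77, 3.62 and 3.48 CPM, and without dog 4 it was below the median detected gene (level -1.62).

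The 5′ genes HOXA10 and HOXA11 had the largest SDs of the cluster, 1.21 and 1.47 log2 units. HOXA10, which patterns the lumbar spine and the uterus, had 30, 31, 14 and 81 reads in dogs 1 to 4, equal to 1.34, 1.91, 0.921 and 10.8 CPM. Dog 4 stood above the other 3 dogs, and the highest and lowest dog were 11.8-fold apart. Without dog 4 the gene was below the median detected gene (level -2.30). HOXA11, needed for the forearm and the uterus, had 3, 9, 0 and 40 reads. HOXA13, needed for digits and the urogenital tract, had 14, 8, 1 and 18. In CPM the dog 4 values were 5.35 for HOXA11 and 2.41 for HOXA13, with intervals of 3.82 to 7.29 and 1.43 to 3.81, above those of dogs 1, 2 and 3 for both genes.

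The HOXB cluster was steadier across dogs and had dog 4 highest in 2 of its 9 detected genes, against 36.0% of all detected genes. HOXB2 to HOXB9 were neither above nor below the median detected gene, and HOXB1 was below. HOXB2, a hindbrain gene, had 7.14, 8.25, 8.68 and 7.23 CPM in dogs 1 to 4, and its level had an SD of 0.04. HOXB3 had 20.1, 12.9, 9.80 and 10.7 CPM, and HOXB4, a gene of blood progenitors and the neck, had 12.5, 13.6, 7.17 and 7.23. Dog 1 was the highest for HOXB3, and for HOXB4 dogs 1 and 2 lay above dogs 3 and 4. HOXB5 had 4.37, 5.91, 4.93 and 7.89 CPM and HOXB6 had 6.65, 9.60, 9.21 and 12.98, with dog 4 the highest for both.

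Toward the 5′ end of the B cluster dog 4 was the lowest. HOXB8 had 6.51, 6.59, 3.68 and 2.27 CPM, and HOXB9, a gene of the thoracic wall, had 31.4, 54.7, 21.5 and 15.1. For HOXB9 the intervals of the 4 dogs did not meet, with 51.1 to 58.4 in dog 2 and 12.5 to 18.2 in dog 4. HOXB9 had a mean level of 1.47 ± 0.73 (SD, n = 4 dogs) and missed the call above (limma, adjusted p = 0.057, positive in 4 of 4 dogs). HOXB7 had 37, 56, 56 and 14 reads and was neither over all 4 dogs, but below when any 1 dog was left out, at levels of -1.60, -1.82, -1.75 and -1.62 without dogs 1 to 4. HOXB1 had 2, 3, 0 and 0 reads, and HOXB13, a prostate and tail gene, had 1 read in dog 3 alone.

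In the RefSeq dog annotation HOXA3 overlaps HOXA4, HOXA5 and HOXA6, HOXB3 overlaps HOXB4, HOXB5 and HOXB6, HOXB8 overlaps HOXB9, and HOXC4 overlaps HOXC6. How reads were counted is not given in the sources used here, which leaves reads of these neighbours uncertain, as are reads of antisense transcripts.

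The HOXC cluster was measured through 5 genes. HOXC4 and HOXC6, genes of the neck and thorax, were neither above nor below the median detected gene. HOXC4 had 6.34, 14.8, 8.42 and 11.8 CPM in dogs 1 to 4, and HOXC6 had 7.81, 11.3, 5.79 and 11.1. Dogs 2 and 4 were the upper pair for both genes. HOXC13, needed for hair and nails, was below with 54, 49, 6 and 11 reads, and in CPM dog 3 (0.395) lay under dogs 1 and 2 (2.41 and 3.02). HOXC12 was below with 1 read in each of dogs 1 and 4, and HOXC11 had 0 reads in all 4 dogs.

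In the HOXD cluster 1 steady gene stood beside genes read in some dogs and hardly or not at all in others. HOXD3, HOXD4 and HOXD11 were below the median detected gene, and HOXD8 and HOXD10 were neither. HOXD8 had 19.8, 25.7, 23.8 and 18.5 CPM in dogs 1 to 4, a 1.39-fold span. HOXD10 (ENSCAFG00000013447), which acts in the hind limb and the lumbar spinal cord, had 0, 3, 0 and 166 reads. Dog 4 reached 22.2 CPM with an interval of 19.0 to 25.9, and dog 2 had 0.185 CPM with an interval of 0.0381 to 0.540. The 0 reads of dogs 1 and 3 allow at most 0.134 and 0.197 CPM, a limit set at 3 reads.

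HOXD11, a gene of the forearm and lower leg, had 37, 0, 1 and 23 reads in dogs 1 to 4. It therefore reached 1.65 CPM in dog 1 and 3.08 in dog 4, and dog 1 differed from dogs 2 and 3 here, unlike at HOXD10. HOXD3 had 4, 30, 5 and 16 reads and HOXD4 had 5, 8, 0 and 4. By CPM dogs 2 and 4 were the upper pair for both, but for HOXD4 the intervals of all 4 dogs overlapped. HOXD1 and HOXD12 had 0 reads in every dog.

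**Figure D2:**
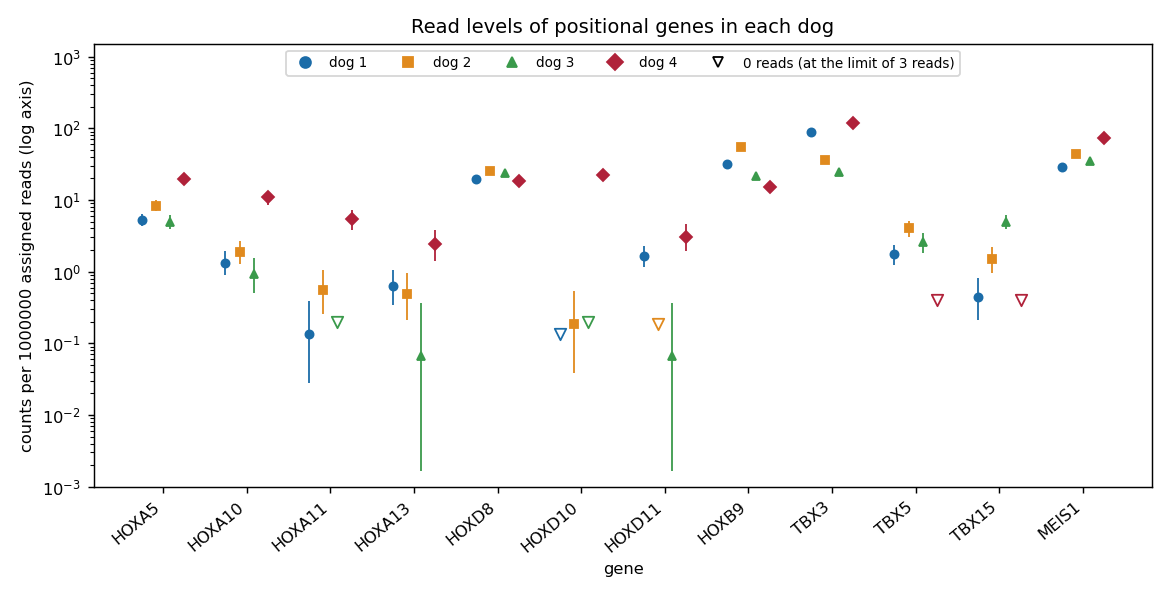
Read levels of 12 positional genes in each dog, as counts per 1000000 assigned reads on a log axis; points are single libraries, bars are exact 95% Poisson intervals of counting error, and open triangles mark 0 reads at the limit of 3 reads. HOXA10, HOXA11, HOXA13 and HOXD10 are highest in dog 4, while TBX5 and TBX15 have 0 reads there.

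Summed over genes, the HOX clusters made up different shares of HOX reads in the 4 cultures. HOX reads are those of the HOX genes analysed here. HOXC5, HOXC8, HOXC9, HOXC10, HOXD9 and HOXD13 thus enter no share under their own symbols. HOX genes together took 161, 213, 132 and 215 CPM in dogs 1 to 4. The HOXA cluster held 20.2%, 19.0%, 18.4% and 36.8% of these reads, and the HOXB cluster held 56.0%, 54.1%, 52.2% and 30.3%. Dogs 1 to 3 lay close together and dog 4 apart from them in both shares. The 95% intervals in dog 4 were 34.4% to 39.2% for HOXA and 28.1% to 32.6% for HOXB (exact binomial, counting error only). HOXC held 10.3%, 13.7%, 11.1% and 11.4%, and HOXD held 13.5%, 13.3%, 18.4% and 21.6%. In CPM, HOXA summed to 32.5, 40.4, 24.2 and 79.2 in dogs 1 to 4, and HOXB to 90.4, 115, 68.7 and 65.3. The HOXB intervals of dogs 3 and 4, 64.6 to 73.0 and 59.6 to 71.4, overlapped, so dog 4 stood apart in the HOXB share but not in HOXB CPM.

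Genes with paralog numbers 10 to 13 took 3.84%, 2.89%, 1.15% and 21.1% of HOX reads in dogs 1 to 4, with an interval of 19.1% to 23.2% in dog 4. The share of HOXA10, HOXA11 and HOXA13 in the HOXA reads was 6.45%, 7.32%, 4.08% and 23.5%. The share of HOXD10, HOXD11 and HOXD12 in the HOXD reads was 7.57%, 0.655%, 0.272% and 54.5%. HOXB8 and HOXB9 took 41.9%, 53.2%, 36.7% and 26.6% of HOXB reads, the lowest in dog 4, where the other sets were highest. Among dogs 1 to 3, all of these shares were lowest in dog 3. The level of HOXA9 minus that of HOXB9 in the same library was -2.05, -2.53, -1.85 and 0.08 in dogs 1 to 4. These sets and pairs were chosen after their values were seen.

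**Figure D3:**
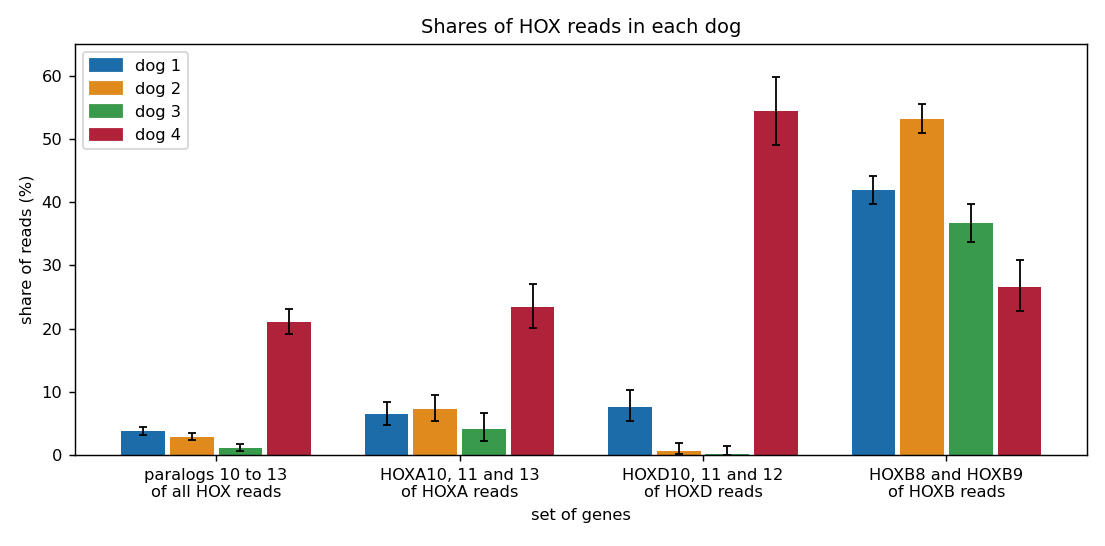
Shares of HOX reads taken by sets of 5′ genes in each dog, in percent, with exact 95% binomial intervals as bars. HOX reads are those of the HOX genes analysed here. Paralogs 10 to 13 hold 21.1% of HOX reads in dog 4 and 1.15% to 3.84% in the other dogs, while HOXB8 and HOXB9 hold the lowest share of HOXB reads in dog 4.

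Over the whole family, dog 4 alone held the highest value in 17 of 29 detected HOX genes, of 33 in the table. The share of all detected genes with dog 4 highest was 36.0%. By CPM the count was 14, against 31.3% of all detected genes. Among the HOX genes with paralog numbers 10 to 13, a set chosen after values were seen, dog 4 was the highest in 6 of 7 detected, of 10 in the table. That count and the 17 of 29 depend in part on the detection rule. HOXD10 and HOXC12 had reads in 2 libraries only with dog 4 included, and HOXC12 had 1 read there. Among the 17, the same held for HOXA2, with 2 reads in dog 4. Dog 3 alone was the lowest in 12 of the 29, against 23.9% of all detected genes. With 1 culture per dog, differences between dogs, cultures and libraries cannot be told apart, nor can fewer cells of a kind from less RNA per cell.

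Markers of other cell types also differed in dog 4. The planned markers KRT8, KRT19, MSLN, CD14, ADIPOQ and FABP4 were not analysed here under those symbols. The summed CPM of 6 epithelial and mesothelial markers was 1.52, 1.35 and 2.04 in dogs 1 to 3 and 58.2 in dog 4. That sum came from the keratin KRT18, with 435 reads in dog 4, where EPCAM, CDH1, UPK3B, LRRN4 and CALB2 had 0. The 6 smooth muscle and pericyte markers summed to 4062, 3033, 2301 and 7226 CPM in dogs 1 to 4, with RGS5 at 0 in all. Most of that sum was ACTA2 and TAGLN, at 4117 and 2765 in dog 4, while CSPG4 was highest in dog 2 and MYH11 ranged from 69.1 to 81.5. The 9 markers expected in MSC cultures summed to 46286, 48846, 50568 and 29728. Most of this was COL1A1, at 40239, 43936, 45401 and 23220. By CPM, DCN and ITGB1 were highest in dog 4, and NT5E, CD44, PDGFRA and PDGFRB were lowest there. Of 4 leukocyte markers 2 had 0 reads in every dog, and dog 4 had none of any. The 4 endothelial markers summed to 2.14 CPM in dog 4 and 4.37 to 17.7 in the others, with PECAM1 at 0 in every dog. The 2 adipocyte markers summed to 5.75 CPM in dog 4 and 0.0615 to 1.78 in the others, the 4 neural and Schwann markers to 0.535 against 0.759 to 2.10, and of the 4 skeletal muscle markers MYOD1, MYF5 and MYOG had 0 reads throughout. The part of these differences in the HOX pattern was not tested.

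The detected T-box genes differed between dogs to unlike degrees, with SDs of the level from 0.17 for TBX18 to 1.31 for TBX15. TBX19, a regulator of pituitary hormone genes, was above the median detected gene with 47.2, 61.6, 75.8 and 45.2 CPM in dogs 1 to 4 (level 2.47 ± 0.25; limma, adjusted p = 2.32e-06, above in 4 of 4 dogs). TBX18, a gene of pericytes, epicardium and ureter mesenchyme, had 20.7, 19.0, 24.7 and 17.0 CPM and was neither (level 1.05 ± 0.17). TBX2, a repressor of cell cycle inhibitors, had 11.96, 10.5, 8.35 and 6.69 CPM and was also neither.

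TBX3, the close relative of TBX2 that acts in the limb and mammary gland, was above the median detected gene and varied widely. Its reads numbered 1990, 586, 376 and 888 in dogs 1 to 4, equal to 88.8, 36.1, 24.7 and 119 CPM. Dogs 1 and 4 formed an upper pair and dogs 2 and 3 a lower one, and no interval met another. The level was 2.46 ± 1.13 (limma, adjusted p = 0.0016, above 0 in 4 of 4 dogs), and the call was not made with the median over genes read in all 4 dogs (level 1.64).

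TBX5 and TBX15 were read in dogs 1 to 3 and not in dog 4, and over all 4 dogs both were below the median detected gene. TBX5 (ENSCAFG00000009189), the factor of the forelimb field and the heart, had 39, 65, 39 and 0 reads in dogs 1 to 4. In CPM that was 1.74, 4.00 and 2.57 in dogs 1 to 3, and 0 reads in dog 4 allow at most 0.401. The lower interval bounds of the other dogs, 1.24, 3.09 and 1.82, lay above that limit, so the difference exceeded counting error at this depth. TBX15 (ENSCAFG00000009976), which acts in limb and skin mesenchyme and in adipose depots, had 10, 24, 75 and 0 reads. Its CPM of 0.446 in dog 1, with an interval of 0.214 to 0.821, could not be told from the limit in dog 4, whereas 1.48 in dog 2 and 4.93 in dog 3 could.

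TBX4, the hind limb and lung counterpart of TBX5, had 2, 4, 5 and 0 reads and was below the median detected gene. Absence of TBX4 reads in dog 4 was not distinguishable from the other dogs at this depth. TBX20, a heart gene, had 12.7, 10.1, 16.1 and 4.28 CPM, with dog 4 below the other dogs. TBX6, a gene of the paraxial mesoderm, and TBX10 were below, with 27, 30, 5 and 8 reads and 8, 8, 0 and 1 reads in dogs 1 to 4. TBX1, a pharyngeal gene, and TBX21, the T-cell factor, had 0 reads in every dog. Dog 4 alone had the lowest value in 7 of the 10 detected TBX genes, of 12 in the table, where 28.2% of all detected genes had theirs in that dog.

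**Figure D4:**
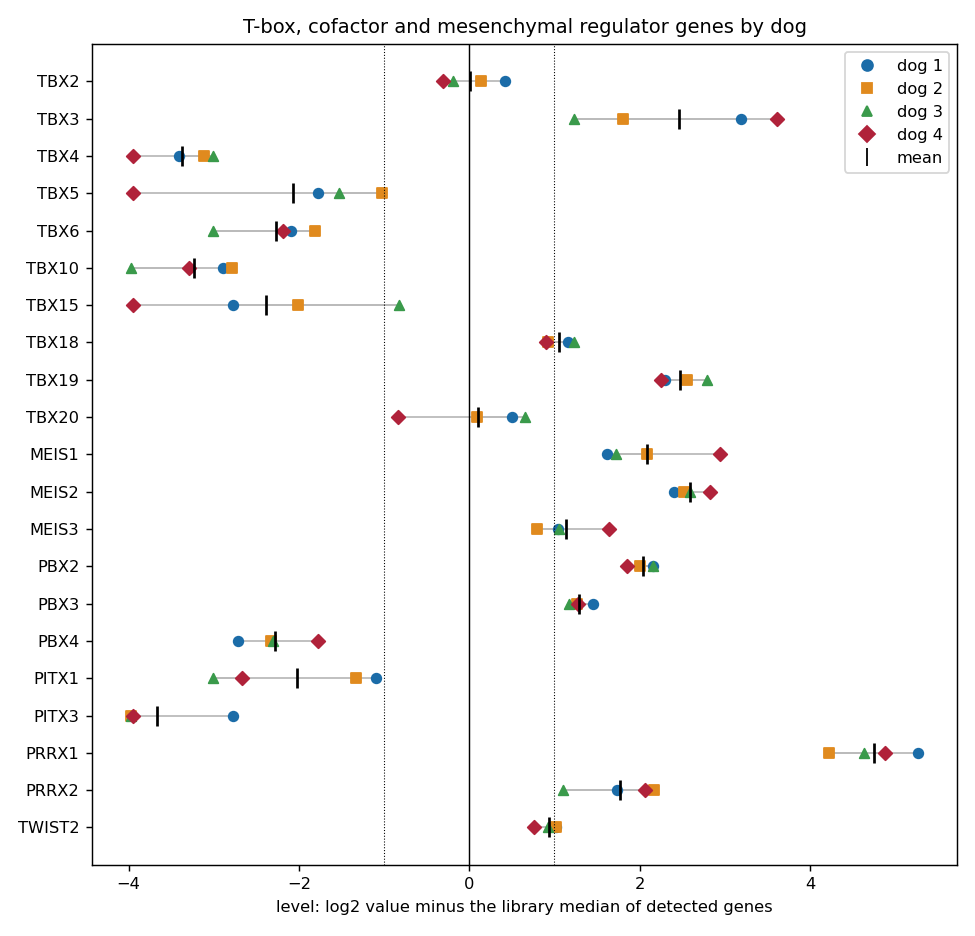
Levels of the T-box, cofactor and mesenchymal regulator genes named in the text with reads in at least 1 dog, as log2 value minus the library median of detected genes; symbols are single dogs, black ticks are means and dotted lines mark 1 log2 unit on either side of the median. TBX5 and TBX15 spread widely with dog 4 lowest, while TBX18, PBX3 and TWIST2 lie close together.

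Among the HOX cofactors, PBX2, PBX3, MEIS1 and MEIS2 were above the median detected gene, PBX4 was below and MEIS3 was neither; with the median over genes read in all 4 dogs, PBX2, PBX3 and MEIS1 did not pass. PBX2 had 42.8, 41.8, 48.2 and 34.0 CPM. PBX3 had 25.8, 24.5, 23.6 and 22.5, a 1.15-fold span, and its call above (level 1.29 ± 0.12, limma, adjusted p = 0.033) was lost without any 1 dog, with levels of 0.98, 1.04, 1.16 and 1.06 without dogs 1 to 4. PBX4 was below with 11, 16, 16 and 13 reads.

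MEIS1, a partner of PBX and of 5′ HOX proteins, had 28.9, 44.3, 35.2 and 74.3 CPM in dogs 1 to 4. Dog 4 lay above the others, with an interval of 68.2 to 80.7. MEIS2 had 51.0, 60.4, 65.8 and 68.0 CPM and was above with a level of 2.59 ± 0.17. MEIS3 had 19.1, 17.3, 21.6 and 29.2 CPM and was neither. By CPM dog 4 was the highest for all 3 MEIS genes and for PBX4, and the lowest for PBX2 and PBX3. For MEIS2 its interval of 62.2 to 74.1 overlapped that of dog 3, 61.8 to 70.0. The dog 4 intervals for PBX3 and PBX4 also overlapped those of other dogs.

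Among the mesenchymal regulators, PRRX1, a homeobox gene of limb bud mesenchyme and fibroblast precursors, had 379, 200, 274 and 288 CPM in dogs 1 to 4 and was above the median detected gene (level 4.75 ± 0.44; limma, adjusted p = 1.96e-08). Dog 1 was the highest and dog 2 the lowest. Its paralog PRRX2 had 31.5, 47.0, 22.4 and 39.6 CPM and was above, though not without dog 2 (level 1.37) nor with the median over genes read in all 4 dogs (level 0.94). TWIST2, a regulator of dermal and bone precursors, had 18.7, 20.5, 19.7 and 15.4 CPM and was neither.

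PITX1, the hind limb identity factor, was below the median detected gene with 77, 49, 5 and 4 reads in dogs 1 to 4. Dogs 1 and 2, at 3.44 and 3.02 CPM, lay above dogs 3 and 4, at 0.329 and 0.535. PITX3, a gene of the lens and of dopamine neurons, had 10 reads, all of them in dog 1.

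The spread between dogs was tested for each gene against genes of like level. No member passed after adjustment over all 17200 detected genes (limma prior variance, F test, Benjamini-Hochberg), and 0 of all genes passed. At an unadjusted p under 0.05 there were 10 of 51 members, or 19.6%, where all detected genes gave 5.20%. HOXA10, HOXA11, HOXB9, HOXD10, HOXD11, TBX3, TBX5, TBX15 and MEIS1 were among them. HOXD10 (SD 2.51, unadjusted p = 0.0012, adjusted p = 0.26 over all genes by Benjamini-Hochberg) and TBX3 (SD 1.13, unadjusted p = 0.0015, adjusted p = 0.28 by Benjamini-Hochberg) had the smallest p among members.

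Of the 51 detected members, 8 had an SD above 1 log2 unit, or 15.7%, against 3.55% of all detected genes. The median SD was 0.47 for the members and 0.36 for all detected genes. Among detected HOX genes the median SD was 0.86 for paralogs 9 to 13 and 0.46 for paralogs 1 to 8. It was 1.21 for paralogs 10 to 13, a set chosen after values were seen. HOXD10 and HOXA3 had 1 library standing apart from the other 3 by Dixon's ratio, 2 of 51 members, against 5.36% of all detected genes.

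**Figure D5:**
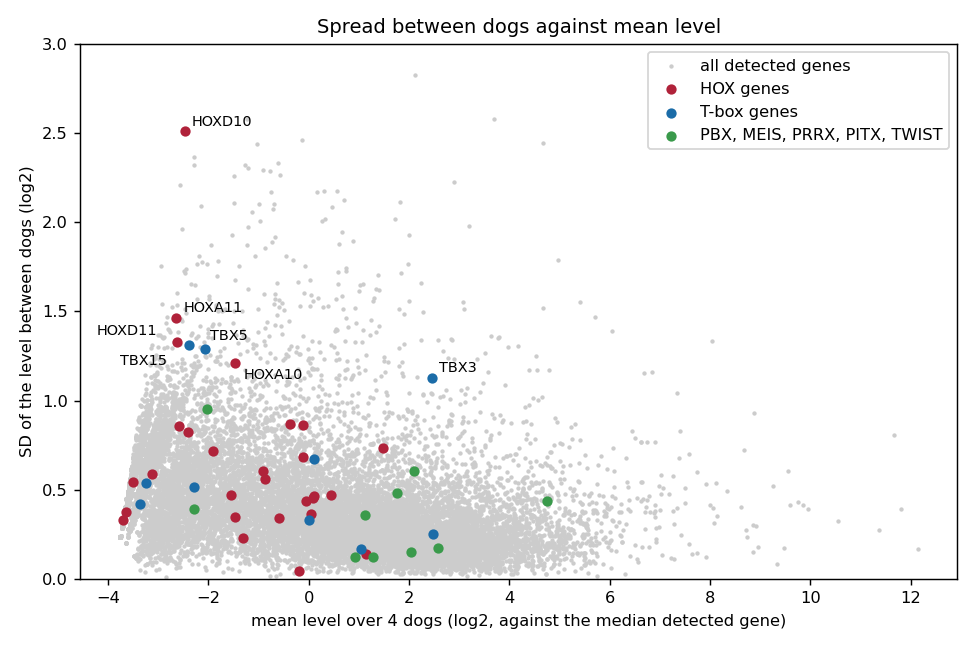
SD of the level between the 4 dogs against the mean level, both in log2 units, with all detected genes in grey and members named in the text coloured by role. Named points have an SD above 1; HOXD10 has an SD of 2.51, and the median SD of cofactors and mesenchymal regulators is 0.41.

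Related gene lists were counted by the same test, beside 33.3% above and 35.8% below over all detected genes. Among TALE homeobox and T-box relatives outside the rule, 11 of 15 genes in the table were detected, of which 2 passed the test above, 5 passed it below and 4 passed neither. MGA (3.41) and the PBX-binding gene PBXIP1 (1.88) were above, 1 of them without dog 1 or 4, and PKNOX1 had a level of 1.05 and TGIF1 of -0.20. EOMES (-3.34) and IRX5 (-2.44) were below. Among 54 tabulated regional patterning factors, 46 were detected, with 2 above, SHOX2 (2.45) and SIX4 (1.68), 27 below and 17 neither, and 1 was above without dog 2 or 3. OSR1 and NR2F1 had levels of 0.90 and 0.80, and CDX1 and OTX1, at -3.74 and -3.71, were below.

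TWIST partners and mesenchymal factors had 12 of 16 above and 2 below (1 below without dog 3), beside the 33.3% above and 35.8% below over all detected genes. ZEB2 (4.85), TEAD1 (4.40), TCF4 (3.95) and RUNX1 (3.72) were above, and ID4 (-2.96) and SOX9 (-1.75) below. All 25 chromatin and CTCF genes that control HOX clusters were detected, with 17 above, such as PHC2 (4.44), KMT2D (4.34), KMT2A (4.19) and KDM6B (3.53), and 0 below (2 below without dog 4). CBX7 and CBX8, at -1.21 and -1.40, were neither. Among 16 tabulated retinoic acid genes, 12 were detected, 6 above, 5 neither and 1 below (2 below without dog 1, 2 or 4). RDH10 (3.30), DHRS3 (3.15), RARA (2.12) and RARG (1.94) were above, RXRG (-3.52) was below and RARB had a level of -1.50. The median SD was 0.24 over the chromatin genes and 0.61 over the regional factors, against 0.36 over all detected genes.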

How the data were processed

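The submitters' processing notes name the build CanFam3.1 and the tools STAR 2.7.11a, Trimmomatic 0.39, FastQC 0.12.1 and DESeq2. How reads were counted, and on which strand, is not given in the sources used here. The deposited values are log2 values from the authors' variance-stabilizing transformation, 1 column per dog, matched by dog number, and no value column was left unused. The transformation was inverted from the value of 0 reads. In every library 100% of the other values came out whole within 0.01 reads, which gave reads, CPM, limits (3 reads) and exact 95% intervals (scipy 1.17.1).

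Tests ran on the deposited log2 values minus the library median of the 17200 detected genes, with limma 3.58.1 under R 4.3.3 (mean level of the 4 dogs, trended prior, distance of 1), adjusted by Benjamini-Hochberg at 0.05. Figures and counts used Python 3.11.15. Alternatives changed the reference median, distance, scale, filter, prior, depth and dogs. Dogs are separate animals with 1 culture each, and p-values use the spread between them. RefSeq (UU_Cfam_GSD_1.0) gave names and neighbours only. Members, lists and the named-gene rule (detected members by call, with values per dog for the highest, lowest and most variable of each role group, undetected ones with reads) were chosen with earlier results of these data known. Some members were counted with the rest but are not reported here by name.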

Additional observations from a re-analysis of the deposited data

Results flagged for a closer look

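HOXD10 was picked out because 1 of its 4 libraries stood far from the others: the gap of dog 4 to the nearest dog was 0.858 of the whole range in Dixon's test, above the 95% critical value for 4 libraries. Its level was 1.26 in dog 4 and -3.94, -3.23 and -3.97 in dogs 1 to 3. HOXA3 was picked out in the same way for a low value in dog 3, with a gap of 0.842 of the range and levels of 0.14, 0.16, -1.66 and -0.12 in dogs 1 to 4. Chance alone marks about 1 in 20 groups this way, and 5.36% of all detected genes were marked.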

How the results depend on the processing

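The count of 9 positional genes above the median detected gene became 4 with the reference median over genes read in all 4 dogs, 33 with the median over all rows, and 14 at a distance of 0.5 or of 0. The count of 18 below became 0 with the median over all rows, 9 with only genes read in all 4 dogs tested, and 11 with only genes of at least 10 mean normalized reads tested; the last pair test fewer genes by construction. Leaving out each dog gave 7 to 9 above, 16 to 19 below and 0 past the variability test, which stayed at 0 under every alternative run. These 2 reference medians lay 0.82 higher and 3.40 lower than the main one on the log2 scale, so with the median over all rows the sign of the mean level turned, with a call under at least 1 of these medians, for these named members, with the level then found: HOXA3 3.03, HOXA4 1.86, HOXA5 3.28, HOXA6 2.49, HOXA7 2.09, HOXA9 3.28, HOXA10 1.93, HOXA11 0.76, HOXA13 0.81, HOXB2 3.21, HOXB5 2.82, HOXB7 1.93, HOXB8 2.53, HOXC6 3.35, HOXC13 1.49, HOXD3 1.00, HOXD4 0.27, HOXD11 0.77, TBX4 0.029, TBX5 1.33, TBX6 1.12, TBX10 0.17, TBX15 1.01, PBX4 1.12, and PITX1 1.38. HOXD10 also turned (0.93), with no call under either median. Under the other alternatives no named member with a call turned, while HOXB3, HOXB4, HOXB6, HOXC4, TBX2 and TBX20, which lay near 0 with no call, turned negative with the median over genes read in all 4 dogs (levels -0.37, -0.73, -0.78, -0.71, -0.81 and -0.72) and under some of the other alternatives. The counts of genes with 1 dog highest or lowest, by CPM, at equal depth or without another dog, were chosen as alternatives after seeing the data; for HOX genes with dog 4 highest they gave 14 to 18, and for TBX genes with dog 4 lowest 6 to 9. HOXA2, HOXB1, HOXC12 and HOXD10 fell under 2 libraries with reads, and so were not tested, without 1 of their dogs. Each member had 1 row, so no other choice of row could be tried. No paired analysis was possible because the labels give 1 group. With 4 libraries and 7474011 reads in dog 4, counts of a few reads cannot be told from 0.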

Other observations

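Regional factors outside the HOX and TBX families also differed between the dogs. The zinc finger gene WT1, known from kidney, gonad, mesothelium and visceral fat stroma, had 148, 91, 317 and 0 reads in dogs 1 to 4 (SD of the level 2.10). LHX8, a LIM homeobox gene of jaw and forebrain, had 90, 1, 110 and 0 reads (SD 1.81). The other 3 regional factors with an SD above 1 were named after their values were seen. NKX2-5, a heart gene, had 2, 22, 0 and 36 reads, TLX1, a spleen gene, had 70, 2, 0 and 0, and SHOX2, a gene of the proximal limb, had 731, 1126, 416 and 1090. Dog 4 was at 0 for WT1, LHX8 and TLX1 and in the upper pair for NKX2-5 and SHOX2.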
